A study of Mus musculus with 5 samples.

Results

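The genes of 8 inhibitory receptors of T cells were followed through the histone acetylation of in vitro memory CD8+ T cells (TM cells). They were Pdcd1, Ctla4, Lag3, Havcr2, Tigit, Cd160, Cd244 and Btla, chosen by their known role with a rule that uses no measured value, though with earlier results of these data known, and they are 8 of 21938 protein-coding genes in the annotation of GRCm38. A peak was counted for a gene when it lay in the gene body or within 30 kb of either end, and this stretch is called the window. The windows held 66 peaks in all, which merged into 21 regions.

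Chromatin was precipitated with antibodies against acetylated histones, named acetyl-lysine in the study's methods and acetyl K18 in the sample descriptions, and the libraries were 2 of WT cells and 3 of TPdh-/- cells (PDH_Mutant in the labels). The TPdh-/- mice carried a floxed Pdha1 allele, the gene of a subunit of pyruvate dehydrogenase, deleted by a Cre driven by the Cd4 promoter, which acts in CD4+ as well as CD8+ lineage cells because thymocytes pass through a stage with both markers. No treatment differed between the groups, and the genetic control for the Cre, the sex and the age of each animal are not given in the sources used here. By the methods, TM cells were made by activating OT-I T cells with OVA peptide and then culturing them with IL-15, from adult mice of both sexes. The methods say in general that measurements were made on discrete samples, and the study names more libraries per group than are analysed here. Whether the numbered libraries came from separate mice is not stated, so the p-values measure only the spread between these libraries, which may be technical.

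Inhibitory receptors limit T cell activation. PD-1 (Pdcd1), TIGIT and BTLA carry tyrosine motifs in their tails that recruit phosphatases, CTLA-4 competes with CD28 for CD80 and CD86, LAG-3 binds MHC class II, TIM-3 (Havcr2) binds ligands that include galectin-9, CD160 shares the ligand HVEM with BTLA, and 2B4 (Cd244) is a receptor of CD48. They are induced on activated T cells and stay high on exhausted ones, and acetylated histones mark active promoters and enhancers. Peak calls describe where acetylation stood above the background of a library and are not a measure of transcription.

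The lists differed in length before any gene was considered. They held 15962 and 8859 peaks in the WT libraries and 4920, 5419 and 9418 in the TPdh-/- libraries, and they covered 20.2, 9.89, 4.85, 5.52 and 10.9 Mb in that order. The labels give a sequencing target of at least 37000000 reads of 51 bases, but the lists hold no read numbers per library, so the depth behind each peak is unknown. An absent peak means only that none passed the threshold of the caller. Of 10 T cell genes, 8, 6, 3, 4 and 6 had a peak within 3000 bp of a coding start site in the same order. Cd8b1 and Lck had one in all 5 libraries, Cd8a in WT replicate 1 alone, and Cd2 and Trac in none. Of these genes only Cd8a and Cd8b1 mark CD8+ cells, and the others are also expressed by CD4+ T cells. Of 3 markers of CD4 T cells, 3 had such a peak in WT replicate 1, 2 in WT replicate 2 (Cd4 and Foxp3) and 0 in each TPdh-/- library. Among all protein-coding genes, the share with such a peak was 40.9% and 23.7% in WT and 14.7%, 15.9% and 26.8% in TPdh-/- libraries. The part of CD4+ cells in the results below was not tested. The methods name OT-I cells for the differentiation, while the legend of the study's genomic figure names splenic T cells and does not mention OT-I. The methods also describe enrichment of pan T, CD8+ and CD4+ cells with isolation kits to a high purity. Which of these was used for the libraries is not said. None of 5 myeloid and 2 NK cell markers had such a peak in any library.

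Regions at the first coding start sites of Ctla4, Tigit and Btla were called in at least 4 libraries, and the only region of Pdcd1 lay beyond its end, and 300 bases of each are shown so that the start sites and the Pdcd1 region can be read beside their values. Each was read from GRCm38 on the strand of the gene, inside the part of the region that every library with a peak there covered and outside annotated UTRs. Capitals mark matches of 6 letters to motifs bound by T cell transcription factor families, on either strand, searched as AGGAAG (ETS), GGAAAA (NFAT) and TGTGGT (RUNX).
Pdcd1, chr1:94035368-94035667, minus strand, 16886 to 17185 bp past the start site: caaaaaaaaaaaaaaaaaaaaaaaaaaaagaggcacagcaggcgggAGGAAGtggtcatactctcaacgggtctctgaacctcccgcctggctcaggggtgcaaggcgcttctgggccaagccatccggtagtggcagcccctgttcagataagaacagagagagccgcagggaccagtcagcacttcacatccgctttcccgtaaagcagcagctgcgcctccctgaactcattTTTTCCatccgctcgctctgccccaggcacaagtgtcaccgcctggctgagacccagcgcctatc
Ctla4, chr1:60908725-60909024, plus strand, the 300 bases before the first coding start site: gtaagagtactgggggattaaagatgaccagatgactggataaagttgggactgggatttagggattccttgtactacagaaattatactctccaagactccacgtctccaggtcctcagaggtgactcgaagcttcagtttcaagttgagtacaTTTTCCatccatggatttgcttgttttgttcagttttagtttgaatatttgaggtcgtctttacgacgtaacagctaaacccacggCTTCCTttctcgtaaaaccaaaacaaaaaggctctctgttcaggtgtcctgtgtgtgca
Tigit, chr16:43664158-43664457, minus strand, ending 12 bp before the start site: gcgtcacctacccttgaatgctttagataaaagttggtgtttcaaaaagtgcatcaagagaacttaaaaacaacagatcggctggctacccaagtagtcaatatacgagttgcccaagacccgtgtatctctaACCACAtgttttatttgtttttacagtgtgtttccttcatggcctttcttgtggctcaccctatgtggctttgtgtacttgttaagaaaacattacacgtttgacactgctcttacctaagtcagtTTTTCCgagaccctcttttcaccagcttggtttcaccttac
Btla, chr16:45224353-45224652, plus strand, from 38 to 337 bp past the start site, where the coding sequence opens: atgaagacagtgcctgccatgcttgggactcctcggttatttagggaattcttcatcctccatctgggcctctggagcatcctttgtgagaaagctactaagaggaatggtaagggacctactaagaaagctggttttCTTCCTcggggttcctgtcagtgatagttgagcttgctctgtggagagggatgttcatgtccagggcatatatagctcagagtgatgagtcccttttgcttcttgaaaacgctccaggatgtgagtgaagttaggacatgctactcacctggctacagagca
The Pdcd1 and Ctla4 stretches each held 1 ETS and 1 NFAT match, Tigit held 1 RUNX and 1 NFAT match, and Btla held 1 ETS match. Among 300-base stretches from the middle of all 18410 merged regions, 39.1% held the ETS letters, 24.2% the NFAT letters and 21.1% the RUNX letters, so these matches are common. No match was found for AP-1 (TGANTCA), STAT (TTCNNNGAA), T-box (GGTGTGA), TCF (CTTTGAT) or NR4A (AAAGGTCA), which occurred in 8.05%, 9.79%, 3.99%, 4.25% and 1.25% of all regions. Stretches of Lag3 and Cd160 chosen the same way held none of the 8 motifs. The GC content was 55.3% for Pdcd1, 42.7% for Ctla4, 41.3% for Tigit and 48.3% for Btla, against a median of 50.3% over all regions.

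**Figure D1:**
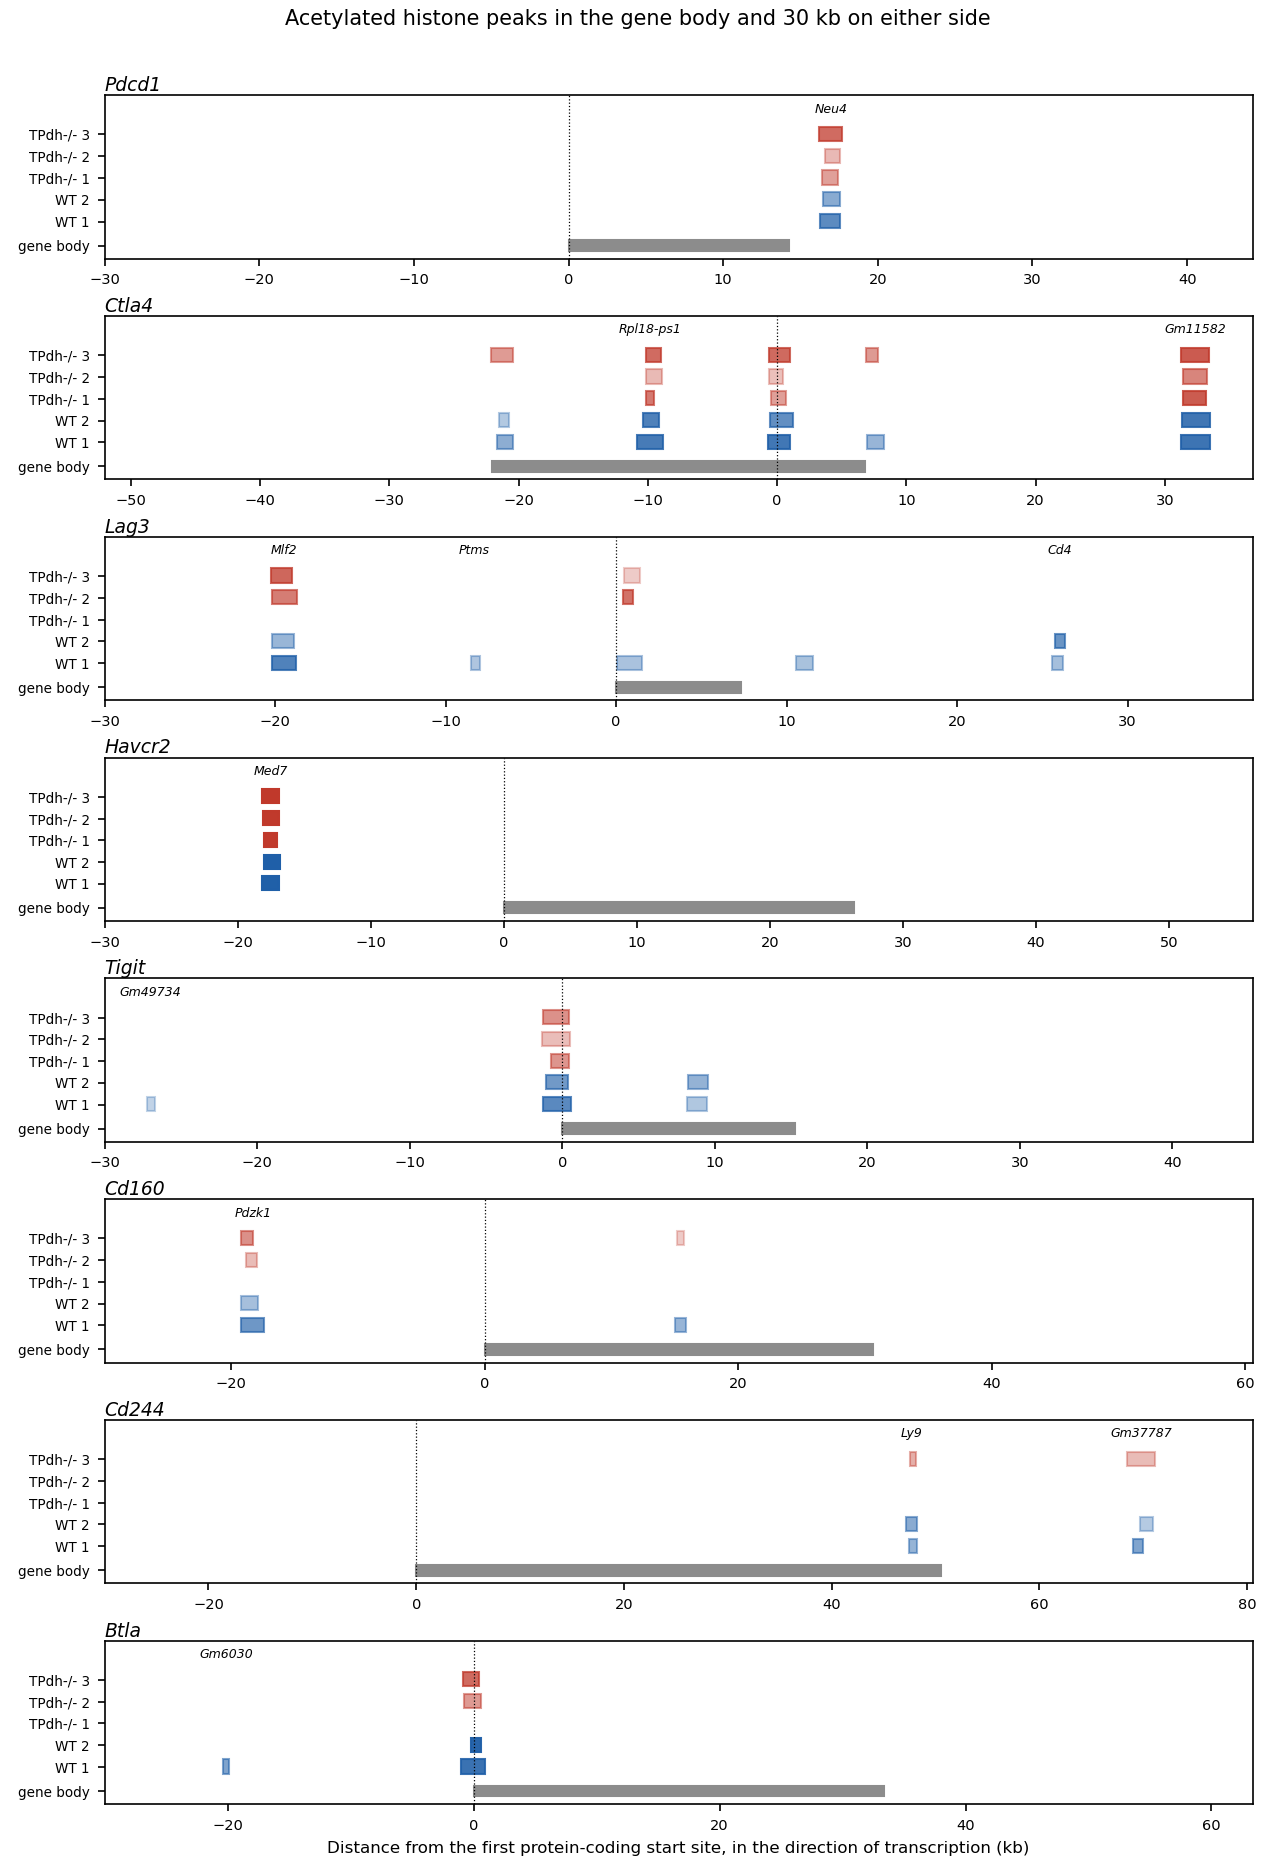
Peaks of each library (rows) in the window of each gene, drawn to scale against the distance in kb from its first protein-coding start site (dotted line), in the direction of transcription. Grey bars are gene bodies, blue bars WT and red bars TPdh-/- peaks, darker for a higher percentile of −log10 q, and italic names mark regions nearest to the start site of another gene. Regions at the start sites of Ctla4 and Tigit were called in all 5 libraries, and no peak lay at the start site of Pdcd1, Havcr2 or Cd244.

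Every gene of the 8 had a peak in its window in WT replicate 1, WT replicate 2 and TPdh-/- replicate 3, 7 had one in TPdh-/- replicate 2 (all but Cd244), and 4 had one in TPdh-/- replicate 1 (Pdcd1, Ctla4, Havcr2 and Tigit). Among all protein-coding genes, the share with a peak in the window was 64.1% and 48.3% in the WT libraries and 33.4%, 35.0% and 51.0% in the TPdh-/- libraries. The windows of the 8 genes were longer, with a median of 87.6 kb against 77.4 kb for all protein-coding genes, and many of their peaks belonged to neighbours. Peaks within 3000 bp of a coding start site of the gene itself were found for 5 and 3 genes in WT and for 2, 4 and 5 genes in TPdh-/- cells. The shares of all protein-coding genes on that measure were 40.9% and 23.7% in WT and 14.7%, 15.9% and 26.8% in TPdh-/- cells. The counts at start sites did not separate the groups, with 4 ± 1.41 genes in WT (SD, n = 2) and 3.67 ± 1.53 in TPdh-/- cells (SD, n = 3).

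**Figure D2:**
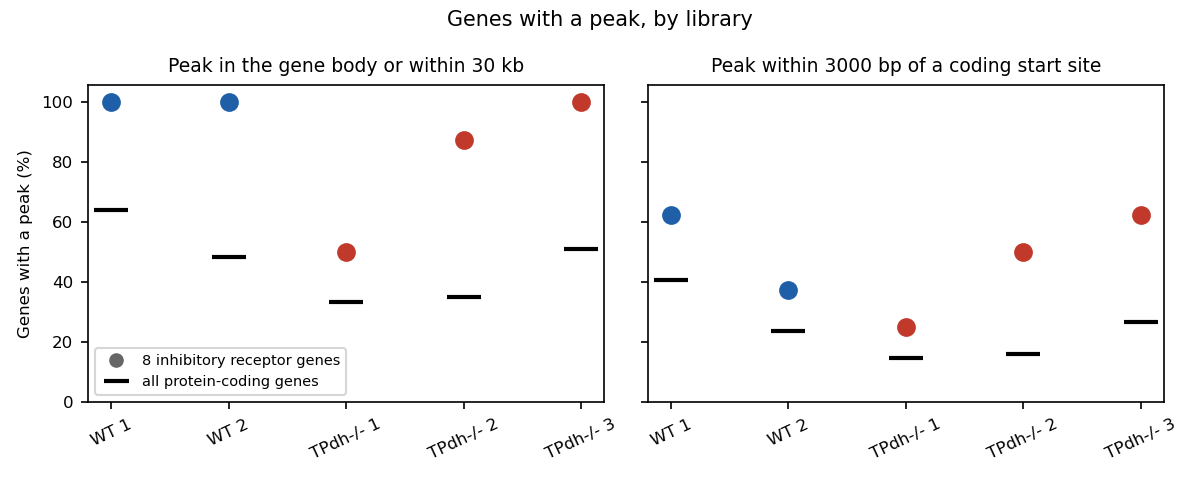
Percent of genes with a peak (vertical axis) in each library (horizontal axis), in the window on the left and within 3000 bp of a coding start site on the right. Points are the 8 receptor genes and black bars all protein-coding genes. The points lie above the bars in every library on the left, from 4 of 8 genes in TPdh-/- replicate 1 to 8 of 8 in both WT libraries.

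The windows held 21 and 14 peaks in WT and 6, 10 and 15 peaks in TPdh-/- libraries, in the same order as the lengths of the 5 lists. The means were 17.5 ± 4.95 peaks in WT (SD, n = 2) and 10.3 ± 4.51 in TPdh-/- cells (SD, n = 3), and the groups overlapped because the count of TPdh-/- replicate 3 exceeded that of WT replicate 2. When each list was limited to its 4920 strongest peaks, the windows held 6 and 7 peaks in WT and 6, 9 and 7 in TPdh-/- cells. Of the 21 regions, 6 had a peak in all 5 libraries, 3 in 4, 4 in 3, 4 in 2 and 4 in 1, and those 4 were all of WT replicate 1, which has the longest list. Of all 18410 merged regions, 16.8% had a peak in all 5 libraries, 56.6% in at least 2 and 43.4% in 1. Both WT libraries and no TPdh-/- library had calls in 2 regions, an intron of Tigit and a stretch inside Cd4 in the Lag3 window. Among all merged regions, 5.92% showed that pattern. No region of the windows was called in TPdh-/- cells alone, against 8.46% of all merged regions.

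Most of these peaks were low in fold, which is not the measure used for rank. MACS2 gives each peak a fold enrichment over its background, and in the windows it ran from 1.57 to 4.11. The median fold of the whole list was 2.40 and 2.54 in WT and 2.65, 2.58 and 2.48 in TPdh-/- libraries. Folds compared between libraries here were not adjusted for these medians. Of the 27 peaks in the 9 regions nearest to a start site of one of the 8 genes, 25 (92.6%) had a fold below the median of their own list, against 50.0% of all 44578 peaks by construction. Of the same 27 peaks, 19 (70.4%) were also wider than the list median, and 28.3% of all peaks were both lower in fold and wider. This is a description, since peaks of different libraries over one region are not independent.

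Ctla4 (ENSMUSG00000026011.13, chr1:60887000-60915832, plus strand), whose product binds CD80 and CD86 more tightly than CD28 does, had 5 regions, as did Lag3. The annotation starts the gene with a non-coding transcript, and the first coding start site lies further in, at position 60909025. There, a region at chr1:60908342-60910228 had a peak in all 5 libraries, with folds of 1.84 and 1.83 in WT and 1.88, 1.73 and 1.86 in TPdh-/- cells. The folds of the groups overlapped, with means of 1.83 ± 0.01 (SD, n = 2) and 1.82 ± 0.0862 (SD, n = 3) and a p of 1.0 in the exact permutation test (two-sided). By −log10 q this peak ranked 3165 of 15962 and 3559 of 8859 in WT, and 3406 of 4920, 4932 of 5419 and 3097 of 9418 in TPdh-/- cells. The percentiles were 80.2 and 59.8 in WT and 30.8, 9.01 and 67.1 in TPdh-/- cells, so TPdh-/- replicate 3 stood between the WT libraries.

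A further region of Ctla4 at chr1:60898189-60900241, in an intron of the non-coding transcript and 657 bp from the pseudogene Rpl18-ps1, had a peak in all 5 libraries. Its percentiles were 76.5 and 71.5 in WT and 56.5, 12.7 and 65.8 in TPdh-/- cells. Downstream, 24454 bp past the end of the gene and nearest to the start site of the predicted gene Gm11582, a region at chr1:60940286-60942548 had percentiles of 82.3 and 80.7 in WT and 76.7, 48.8 and 76.8 in TPdh-/- cells. Both WT libraries stood above all TPdh-/- libraries in these 2 regions. The downstream peaks were wide, spanning 2201 and 2215 bp in the WT libraries against 1803, 1840 and 2144 bp in the TPdh-/- libraries. At the start of the non-coding transcript, chr1:60886931-60888602, a weaker peak was called in both WT libraries and TPdh-/- replicate 3, and 76 bp past the end of the gene, chr1:60915908-60917327, in WT replicate 1 and TPdh-/- replicate 3 with the lowest fold of all, 1.57.

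Tigit (ENSMUSG00000071552.5, chr16:43648867-43664146, minus strand), a receptor for the poliovirus receptor, had a peak across its start site in all 5 libraries, at chr16:43663554-43665440. The folds were 2.06 and 2.25 in WT and 2.22, 2.00 and 1.94 in TPdh-/- cells, and overlapped. The percentiles were 64.8 and 51.3 in WT and 37.6, 10.7 and 40.3 in TPdh-/- cells, with both WT libraries above. An intronic region at chr16:43654604-43655943 had a peak only in the WT libraries, 1263 and 1309 bp wide, at percentiles of 13 and 30.3, so it ranked in the lower part of both lists. A narrow peak 26688 bp upstream, near the predicted gene Gm49734, was called in WT replicate 1 alone, at a percentile of 3.2. TIGIT and CTLA-4 are also made by regulatory CD4+ T cells, and the Foxp3 start site had a peak in both WT libraries, at percentiles of 25.1 and 61.8, and in no TPdh-/- library. The part of such cells in the Tigit and Ctla4 values was not tested.

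Btla (ENSMUSG00000052013.15, chr16:45224315-45257670, plus strand), which binds HVEM, had the start-site peak placed highest of the 8 genes in both WT libraries, and a call in 4 libraries in all, at chr16:45223302-45225265. It ranked 2482 of 15962 and 470 of 8859 in WT, at percentiles of 84.5 and 94.7, and 3547 of 5419 and 3157 of 9418 in TPdh-/- replicates 2 and 3, at percentiles of 34.6 and 66.5. No peak was called there in TPdh-/- replicate 1, the shortest list. The folds were 2.31 and 2.76 in WT and 2.22 and 2.28 in the 2 TPdh-/- libraries with a peak, so the WT libraries were higher among the 4 with a call, without a test because 1 library gave no value. The only other region of its window, 19855 bp upstream and near the predicted gene Gm6030, was called in WT replicate 1 alone.

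Pdcd1 (ENSMUSG00000026285.7, chr1:94038305-94052553, minus strand), the receptor of PD-L1 and PD-L2, had no peak at its start site or in its body in any library. Its 1 region, chr1:94034865-94036324, lay 1981 bp past the end of the gene, 14372 bp from the start site of Neu4, and was called in all 5 libraries. The folds were 2.44 and 2.38 in WT and 2.47, 2.27 and 2.56 in TPdh-/- cells. Counted from the top of each list it ranked 5860 and 5620 in WT and 3430, 4696 and 3187 in TPdh-/- cells, so the rank numbers were smaller in all TPdh-/- libraries. Among the regions common to all libraries, 18.2% showed the same order and 7.91% the opposite one. Rank numbers depend on list length, and the list of TPdh-/- replicate 3 (9418 peaks) is longer than that of WT replicate 2 (8859 peaks). The part of list length in the order at Pdcd1 was not tested. By percentile the groups overlapped, with 63.3 and 36.6 in WT and 30.3, 13.4 and 66.2 in TPdh-/- cells.

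Lag3 (ENSMUSG00000030124.2, chr6:124904361-124911705, minus strand) lies next to Cd4, and its ligands include MHC class II. A region within the start of the gene, chr6:124910157-124911655, had a peak in WT replicate 1 (fold 1.91, percentile 17), TPdh-/- replicate 2 (fold 2.62, percentile 61.7) and TPdh-/- replicate 3 (fold 1.94, percentile 1.03). The strongest of the 3 was that of TPdh-/- replicate 2, and WT replicate 2 had no peak there. The window also held the region inside Cd4 called in both WT libraries, at percentiles of 19.9 and 55. It further held the start site of Mlf2, called in all libraries but TPdh-/- replicate 1. The Mlf2 percentiles were 70.5 and 27.4 in WT and 53.9 and 68.9 in TPdh-/- replicates 2 and 3. Peaks near Ptms and 3204 bp past the end of Lag3 were of WT replicate 1 alone.

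For the other 3 genes, the peaks lay at neighbours or at an internal start. Havcr2 (ENSMUSG00000020399.14, chr11:46454935-46481255, plus strand) had no peak of its own, and its region, 16836 bp upstream, was the start site of Med7, a Mediator subunit gene. That peak ranked 44 and 19 in WT and 22, 21 and 15 in TPdh-/- libraries, the highest ranks of any region in the windows. Its folds were 3.69 and 3.83 in WT and 4.11, 3.88 and 4.03 in TPdh-/- cells, all TPdh-/- libraries above both WT, with means of 3.76 ± 0.103 and 4.01 ± 0.118 (SD, n = 2 and 3). Cd160 (ENSMUSG00000038304.14, chr3:96798763-96829351, minus strand), another receptor of HVEM, had a weak peak at an internal coding start site in WT replicate 1 and TPdh-/- replicate 3, at percentiles of 27.7 and 1.23, and a region 17407 bp upstream, inside Pdzk1, in 4 libraries. The percentiles of the Pdzk1 region were 52.8 and 19.5 in WT and 11.8 and 40.9 in TPdh-/- replicates 2 and 3, and overlapped.

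Cd244 (ENSMUSG00000004709.14, Cd244a in the annotation, chr1:171559193-171609746, plus strand) had no peak at its own start site, and its 2 regions, at the start site of its relative Ly9 and 17868 bp past the annotated end, were called in both WT libraries and TPdh-/- replicate 3. The Ly9 peak had percentiles of 28.8 and 36.2 in WT and 20.7 in TPdh-/- replicate 3, with folds of 2.25, 2.44 and 2.37. The further region, nearest to the predicted gene Gm37787, had percentiles of 41.5 and 10.4 in WT and 11.4 in TPdh-/- replicate 3. It enters the window because 1 annotated transcript of Cd244 runs past Ly9, and it lies outside the window of the protein-coding transcript.

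The length covered by peaks in each window was compared between the groups by an exact permutation test over the 10 splits of 5 libraries. The smallest two-sided p it allows is 0.2, so no gene could pass 0.05. Tigit had 3651 and 2748 bp in the WT libraries against 1210, 1804 and 1686 bp in the TPdh-/- libraries, a mean difference of 1633 bp, and was the 1 gene of the 8 with both WT libraries above every TPdh-/- library (p = 0.2 and adjusted p = 0.71 over 14609 genes with a peak, exact permutation test). Over all protein-coding genes with a peak, 28.1% had more covered length in both WT libraries, and 0.0685% had less, so 1 of 8 is below the background share. With each list limited to its 4920 strongest peaks, the mean difference at Tigit (WT minus TPdh-/-) turned to −285 bp, but the libraries overlapped. This cut removed the start-site peak of WT replicate 1 (rank 5618) and that of TPdh-/- replicate 3 (rank 5619), leaving both without a covered base. WT replicate 2 kept 1439 bp, a length between those of TPdh-/- replicate 1 (1210 bp) and TPdh-/- replicate 2 (1804 bp). The sign of this mean difference therefore does not show a reversal between the groups. For Ctla4 the covered lengths were 8514 and 5963 bp in WT libraries against 3540, 4149 and 7470 bp in TPdh-/- libraries, where TPdh-/- replicate 3 exceeded WT replicate 2. For the other 6 genes the groups also overlapped, and Lag3, Cd160, Cd244 and Btla had no covered base in TPdh-/- replicate 1, nor Cd244 in replicate 2.

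**Figure D3:**
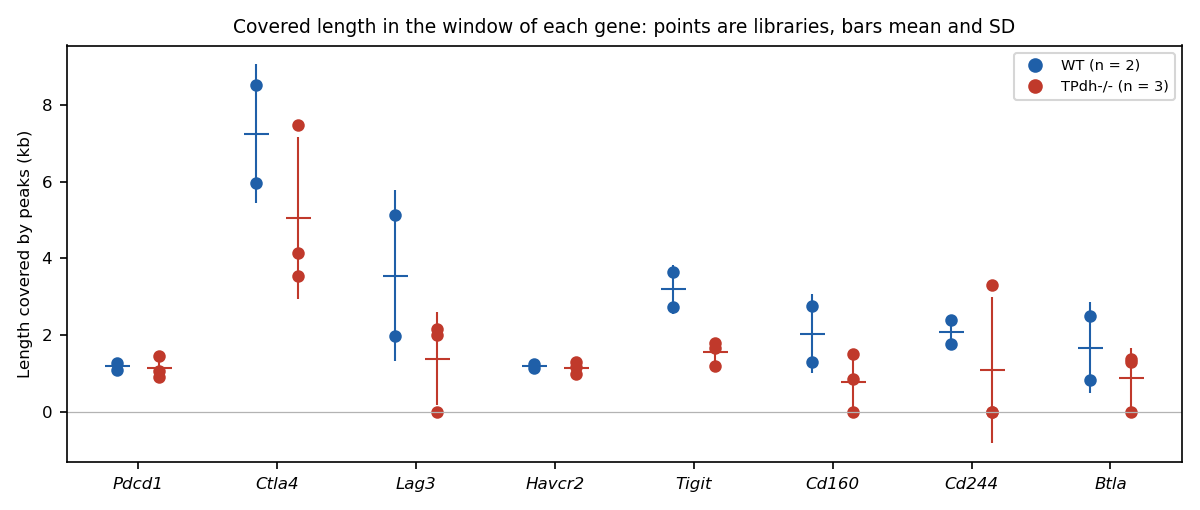
Length covered by peaks in kb (vertical axis) in the window of each gene (horizontal axis). Points are libraries, and crossed bars the mean and SD of 2 WT (blue) and 3 TPdh-/- (red) libraries. The Tigit libraries do not overlap, with 3651 and 2748 bp in WT against at most 1804 bp, and those of the other genes do.

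Of the 6 regions called in all 5 libraries, the percentile in the list was higher in both WT libraries for 3, the 2 Ctla4 regions away from the coding start and the Tigit start site, against 29.5% of all 3099 such regions, and lower for 0 against 1.45%. Percentiles depend on list length, so 2 further scales were read. Rank from the top depends on list length too, and only the place among common regions uses the same set of regions in every library. By rank from the top, 0 of the 6 were higher in WT against 7.91%, and 1, that of Pdcd1, was lower against 18.2%. By place among the 3099 common regions alone, 0 of 6 were higher, against 11.3%, and 0 were lower, against 10.9%. The fold was higher in both WT libraries for 0 of 6 against 12.6% and lower for 1, that of Med7, against 11.6%. The width was higher in both WT libraries for the 3 Ctla4 regions against 33.5%, and lower for 0 against 0.323%. All of these non-overlapping values have p = 0.2 in the exact permutation test (two-sided), with adjusted p from 0.591 to 0.824 over the 3099 regions.

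**Figure D4:**
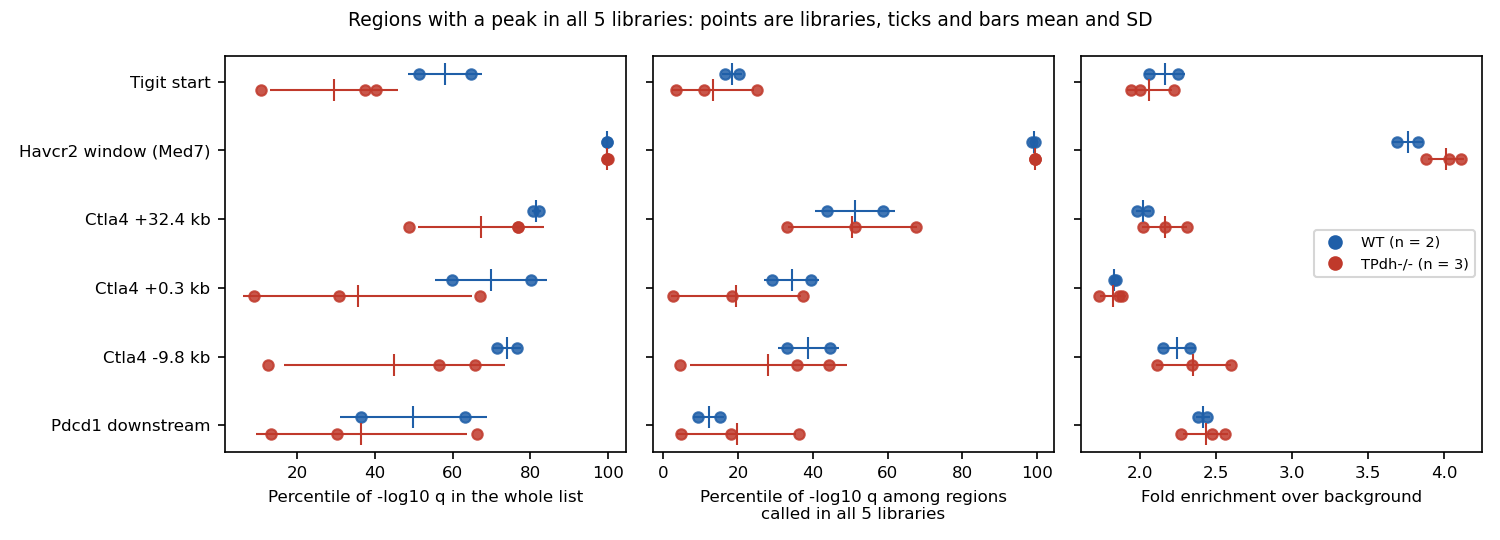
The 6 regions with a peak in all 5 libraries (vertical axis), by percentile of −log10 q in the whole list, by percentile among regions common to all libraries, and by fold enrichment (horizontal axes). Points are libraries, ticks and bars the mean and SD of 2 WT (blue) and 3 TPdh-/- (red) libraries. The Tigit start stands apart by percentile in the list, at 51.3 and above against at most 40.3, and overlaps on the other scales.

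The genes around these receptors were read in the same way, by a peak within 3000 bp of a coding start site, beside the shares of all protein-coding genes given above. Of 15 ligand genes, 12 and 8 had such a peak in WT and 5, 5 and 7 in TPdh-/- cells. Cd274 (PD-L1), Tnfrsf14 (HVEM), Cd48 and Hmgb1 had one in all 5 libraries. The Cd48 percentiles, for the ligand of 2B4, were 96.7 and 81.1 in WT and 58.8, 82.4 and 80.7 in TPdh-/- cells, and overlapped. The Cd274 percentiles were 94.8 and 83.4 in WT and 46.2, 43.2 and 70.9 in TPdh-/- cells, with both WT libraries above, on the scale that depends on list length. Fgl1, Nectin2 and Ceacam1 had no peak, and Lgals3 and Nectin3 had one in WT replicate 1 alone.

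Of 12 signalling partners, 10 and 8 had a peak in WT and 4, 5 and 7 in TPdh-/- cells. Ptpn6 (SHP-1) and Inpp5d (SHIP-1), phosphatases recruited by inhibitory receptors, the kinase gene Lck and Bag6, a partner of TIM-3, had one in all 5 libraries, whereas Sh2d1b1 and Trat1 had none and Ptpn11 (SHP-2) had one in WT replicate 1 alone. The Ptpn6 percentiles were 71.4 and 49.5 in WT and 57.1, 51.2 and 58.7 in TPdh-/- cells, and overlapped. Of 18 transcription factor genes linked to inhibitory receptor expression, 12 and 5 had a peak in WT and 3, 5 and 9 in TPdh-/- cells. Batf and Bcl6 had one in all 5 libraries, Tox2, Nr4a1, Prdm1, Tbx21, Maf and Runx3 in none, and Eomes and Id3 in WT replicate 1 alone. The Batf percentiles were 87.3 and 72 in WT and 67.5, 57.1 and 65.2 in TPdh-/- cells. Tox, named after its values were seen for its role in exhaustion, had a peak in WT replicate 1 and TPdh-/- replicates 2 and 3, at percentiles of 29.9, 36.3 and 15.6.

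Of 14 other inhibitory receptor genes, 7 and 5 had a peak in WT and 2, 1 and 4 in TPdh-/- cells. Cd96, which like TIGIT binds the poliovirus receptor, was the 1 gene with a peak in all 5 libraries, at percentiles of 83.4 and 86.7 in WT and 55.8, 72.2 and 86.6 in TPdh-/- cells, so TPdh-/- replicate 3 stood between the WT libraries. Cd200r1 and Lilrb4a had a peak in WT replicate 1 alone, and Pvrig, Klrg1, Klrc1, Ceacam1, Pilra, Cd22 and Fcgr2b had none. Of 11 costimulatory relatives, 8 and 5 had a peak in WT and 1, 1 and 6 in TPdh-/- cells, and no gene had one in all 5. Tnfrsf4, Tnfrsf18 and Cd2 had none, and Cd27 and Slamf1 had one in WT replicate 1 alone. TPdh-/- replicate 3, whose list is longer than that of WT replicate 2, had more genes with a peak than WT replicate 2 among the transcription factors and the costimulatory relatives, and 1 gene fewer in each of the other 3 lists.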

How the data were processed

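The authors aligned reads to GRCm38/mm10 with BWA-mem 0.7.17, kept uniquely mapped reads with SAMtools 1.15.1 and called broad peaks per library with MACS2 2.2.6; an input control is not given in the sources used here. The deposited lists hold, for each peak, a fold enrichment ratio, −log10 p and −log10 q values, and a score that was not used for results. Peaks from a less deeply sequenced or noisier library are fewer and narrower, and the lists give no read numbers, so the depth of each library and the precision it allows are unknown beyond the target of at least 37000000 reads in the labels.

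Windows, start sites and classes came from GENCODE M21 and sequences from the GRCm38 genome. The class promoter means within 3000 bp of a start site. Peaks that shared at least 1 bp across libraries were merged into regions. Peaks were ranked within each list by −log10 q. The percentile is the rank from the bottom, averaged over ties, as a percent of the list length. Covered length and the values of shared regions were compared by the exact permutation test (two-sided) with Benjamini-Hochberg adjustment over all genes or regions tested. Python 3.11.15, numpy 2.4.6, pandas 2.3.3 and pysam 0.24.0 were used, and the procedures were tested on simulated data. The genes named are the 8 receptors, the genes whose start site is nearest to a peak in a window, and, of the partner lists, those with a start-site peak in all 5 libraries, in none or in 1. The members and lists were chosen with earlier results of these data known. Alternatives were the q threshold, lists of equal length, windows of 10 and 50 kb, peak midpoints, other start-site sets, an overlap of 50%, leaving out each library, and a replicate block. The result of 1 marker list is not reported here.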

Additional observations from a re-analysis of the deposited data

How the results depend on the processing

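The counts for the 8 genes depended on list length and threshold. With lists of equal length (4920 peaks each), the WT minus TPdh-/- difference in peaks in the windows was −0.833 (7.17 with whole lists), the difference in genes with a peak was −0.833 (1.67), 2186 protein-coding genes had more covered length in both WT libraries (4105), and 8 regions had a peak in at least 2 libraries (17). At −log10 q of at least 5, the difference in genes with a peak nearest their own start site was 2 (0.333), 1974 protein-coding genes had more covered length in both WT libraries, and 3 regions were left. A window of 10 kb left 11 regions. Both other scales of place, chosen after seeing the data, gave 0 and 0 of the 6 common regions higher in both WT libraries, where the percentile gave 3. Leaving out 1 library in turn, the difference in peaks ran from 3.67 to 10.7, in genes with a peak from 0.5 to 2.5 and in start-site genes from −0.667 to 1.33, regions from 13 to 17 and protein-coding genes from 4219 to 13076. Of 100 covered-length differences under alternatives, 91 kept their direction and 9 reversed: with equal lists Pdcd1 (−1154 bp), Lag3 (−51.5), Tigit (−285) and Cd160 (−294) in 4 of them, and leaving out WT replicate 1 (Pdcd1 −47, Havcr2 −21.3 and Btla −51), TPdh-/- replicate 1 (Havcr2 −43) or TPdh-/- replicate 2 (Pdcd1 −68.5) in the other 5. Over the libraries left out, these ran from −68.5 to 200 bp for Pdcd1, −43 to 109 for Havcr2 and −51 to 1619 for Btla. Fewer peaks in the lists follow from the first 2 settings; the cause of the other changes was not tested. No value was left for Cd160 and Cd244 at −log10 q of at least 5, Cd244 with equal lists, and Havcr2 at 10 kb. A replicate block over the shared numbers 1 and 2 leaves out TPdh-/- replicate 3. Its differences of 9.5 peaks, 2.5 genes and 1 start-site gene therefore repeat those without that library. The same holds for its covered-length differences, which enter the 100 under both settings. In the block, 8983 protein-coding genes had more covered length in each WT library than in the TPdh-/- library of the same number. That criterion is looser than for 4105, where both WT libraries exceeded every TPdh-/- library. The labels state no pairing, and the deviations of same-numbered libraries correlated at 0.01 over 14609 genes.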
